A study of Rattus norvegicus with 24 samples.

Results

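The genes described here make, package, take up and break down the inhibitory transmitter GABA in the rat retina, with the glycine transporter GlyT1 (Slc6a9) set beside them. They were chosen by symbol, as all probes whose RefSeq accession mapped to Slc6a11, Slc6a13, Slc6a9, Slc32a1, Gad1, Gad2 or Abat. This gave 8 probes for the 7 genes, among 33849 rat probes on the array and 4012 genes that could be named by symbol. Gad2 had 2 probes and each other gene had 1. Of the 8 probes, 6 passed the limit on dim probes and were tested among 22025 probes, and both Gad2 probes did not pass.

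Male Sprague Dawley rats had received vehicle or streptozotocin (STZ), a toxin of the pancreatic beta cells that make insulin. The RNA of each retina sample was read on its own CodeLink whole genome array, and retinas were taken 1 or 3 months later. The 4 groups were 1M Control, 1M STZ, 3M Control and 3M STZ, with 6 arrays each. STZ rats had no insulin treatment and entered the study only when hyperglycemic, so that diabetes and STZ itself cannot be told apart in these groups. Arrays were labelled by group and replicate number and were treated here as separate rats. However, the study's list of animals holds fewer rats than arrays for 1M Control. Ages beyond the months after injection were not given in the labels. Each level below is the background-subtracted brightness of a spot divided by the median of the rat probes on its array, and is called scaled intensity. Differences are on the log2 scale of that quantity. A probe was called at an adjusted p under 0.05 in limma and a difference of at least 1.2-fold.

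GABA is formed from glutamate by glutamate decarboxylase, which has isoforms encoded by Gad1 and Gad2. The vesicular transporter encoded by Slc32a1 loads GABA and glycine into synaptic vesicles, membrane carriers of the SLC6 family remove both transmitters from the extracellular space, and GABA transaminase, encoded by Abat, begins the breakdown of GABA in mitochondria. In the retina, GABA and glycine are the transmitters of amacrine cells, and Müller glia, which span the tissue, take part in clearing GABA.

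The arrays of the time points differed in more than the groups. The interquartile range of the log2 values was 3.36 to 3.67 on all 12 arrays of the 1 month groups, 1.48 to 2.23 on 3M Control arrays and 2.07 to 2.70 on 3M STZ arrays. Array 2 of 3M Control stood apart, and its median correlation with the remaining 3M Control arrays was 0.842, while array 1 of 3M STZ was next at 3 months with 0.916. Over all tested probes the median log2 difference between 3M STZ and 3M Control was 0.44 with median scaling and 0.16 with quantile normalization, which gives all arrays the same distribution. With median scaling, 93.4% of the calls at 3 months were higher in STZ, and with quantile normalization 78.1%. Values at 3 months are therefore given beside that median and beside the quantile-normalized value where this changes the reading.

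At 3 months the GABA genes did not move together. Slc6a11, which encodes the GABA transporter GAT3, was 5.13-fold higher in 3M STZ than in 3M Control. This direction is opposite to that of the study's qPCR of the gene, where it was lower in STZ at the later time. According to the paper, qPCR was run first in the rats of the arrays and then in independent sets. The 3 month samples of the array rats ran out before the study ended. The paper describes array and qPCR ratios as similar in general. The cause of the opposite direction was not tested. Gad1 and Slc32a1 were higher by 0.57 and 0.67 on the log2 scale, close to the shift of all probes. Abat fell by 0.45. Slc6a13 and Slc6a9 did not pass the test. Thus 4 of the 6 tested probes were called, 3 higher and 1 lower, where 54.1% of all tested probes were called, 50.5% higher and 3.55% lower. The median difference of the 6 was 0.54. The count of 4 fell to 1 without array 2 of 3M Control, when only Slc6a11 was called, and to 2 without array 5 of 3M STZ, when Slc6a11 and Slc32a1 were called. Quantile normalization called 3 of the 6, and these were Slc6a11 higher and Abat and Slc6a9 lower.

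**Figure D1:**
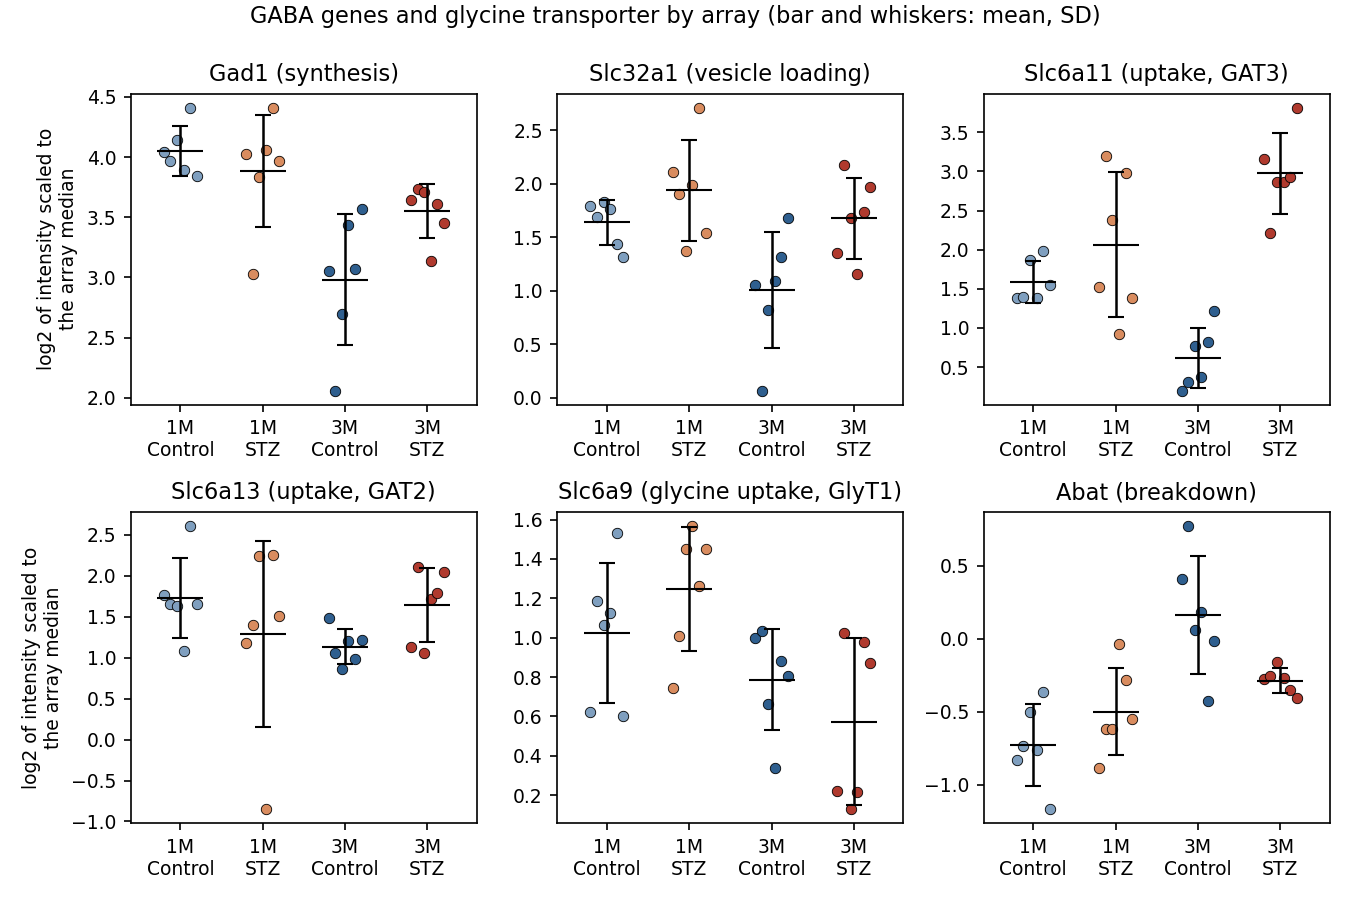
Level of each tested gene on each array, as log2 of intensity scaled to the array median, in the 4 groups of 6 arrays. Points are arrays, bars are group means and whiskers are SD. For Slc6a11 all 3M STZ arrays (2.21 to 3.82) lie above all 3M Control arrays (0.20 to 1.22), while for the other 5 genes the groups overlap at 3 months.

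Slc6a11 encodes GAT3, a plasma membrane GABA transporter found on neurons and glia. Its scaled intensity had a lowest, median and highest value of 2.60, 2.78 and 3.95 on 1M Control arrays and of 1.90, 4.04 and 9.17 on 1M STZ arrays. On 3M Control arrays these values were 1.15, 1.50 and 2.33, and on 3M STZ arrays 4.64, 7.47 and 14.1. All 6 arrays of 3M STZ lay above all 6 of 3M Control, a separation that 10.2% of all tested probes showed in either direction and 9.49% with STZ higher. In log2 the difference was 2.36 (SE 0.30, n = 6 per group, adjusted p = 2.57e-05 in limma), or 1.91 above the median of all probes. Its rank for this difference was 16 among the 22025 tested probes, and 7 among the 3141 with a symbol. The study had selected this gene for its qPCR from these same arrays, so that the difference at 3 months and its p are not independent evidence. In each of the alternatives run, with each array left out included, the 3 month difference stayed called, but with the level of lens markers as a covariate, chosen after seeing the data, it was 1.18.

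The RefSeq window of 250 bases upstream of the transcript start of Slc6a11 is shown because this gene differed most of the 7 (GRCr8, chr4:148853307-148853556, plus strand). Capitals mark the GC box GGGCGG on either strand.
Slc6a11 upstream window: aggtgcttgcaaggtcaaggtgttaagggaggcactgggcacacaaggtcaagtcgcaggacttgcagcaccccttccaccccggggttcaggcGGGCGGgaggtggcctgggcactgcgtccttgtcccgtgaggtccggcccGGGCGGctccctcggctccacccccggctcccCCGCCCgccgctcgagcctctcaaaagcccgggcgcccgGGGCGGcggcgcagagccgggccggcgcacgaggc
The window held 4 GC boxes and its G and C content was 73.6%. At least 1 GC box stood in 30.5% of the 33469 windows of this length, and 4 or more in 3.67%. The letters TATAAA (12.9% of windows), the STAT motif TTCNNNGAA (7.67%) and the AP-1 motif TGANTCA (6.34%), each searched on both strands, were not found in it. These matches describe the letters of the window and were not tested against the arrays.

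At 1 month the levels of Slc6a11 on STZ arrays spread widely around those of the controls. Arrays 2, 3 and 5 of 1M STZ lay above all controls, array 4 lay below all of them, and arrays 1 and 6 lay within. The log2 difference was 0.47 (95% interval -0.14 to 1.09) and was not called. The SD of the log2 values was 0.92 on 1M STZ arrays against 0.27 on 1M Control arrays, 0.39 on 3M Control arrays and 0.52 on 3M STZ arrays. The STZ effect was larger at 3 months than at 1 month by 1.89 (SE 0.42, adjusted p = 0.0167 in limma), in a test of the difference itself that called 15.5% of all tested probes, 14.8% with the larger value at 3 months. It was the only one of the 6 tested probes called there. With quantile normalization within each time point this difference was 1.47 and no longer called (adjusted p = 0.0516 in limma).

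Ordered by mean level, the groups ran from 3M Control (log2 0.62) through 1M Control (1.59) and 1M STZ (2.06) to 3M STZ (2.97). The first neighbours in that order did not overlap, and 3M Control was 0.98 lower than 1M Control (adjusted p = 0.00557 in limma). With quantile normalization this difference was -0.56 and not called (adjusted p = 0.124 in limma). The neighbours 1M Control and 1M STZ overlapped, as did 1M STZ and 3M STZ. The duration of the study, the age of the rats and the set of arrays cannot be told apart between the time points. The median of all probes also fell by 0.52 between the control groups.

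Within an array, Slc6a11 can be set against each other gene as a log2 ratio, which removes any factor that scales the whole array. At 3 months the ratio to Slc6a13 was higher in STZ by 1.85, to Slc6a9 by 2.57, to Gad1 by 1.79 and to Abat by 2.81. In each of these all 6 STZ arrays lay above all controls, and the exact two-sided permutation test gave p = 0.00216, the smallest it can give with 6 against 6 arrays (0.00541 after adjustment over the 10 ratios compared). The ratio to Slc32a1 was higher by 1.69, with 5 of 6 STZ arrays above all controls (exact permutation p = 0.00433, adjusted 0.00866). At 1 month the ratio to Slc6a13 was higher by 0.92 (exact permutation p = 0.0281, adjusted 0.0469), and array 4 of 1M STZ, where Slc6a13 was far below its group, enters that value. The other 4 ratios at 1 month differed by 0.17 to 0.63 and did not pass, with adjusted p between 0.284 and 0.669 in the exact permutation test. Since Slc6a11 stands in each ratio and was selected by the study, these p-values are also not independent evidence for it.

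Transcripts of the lens moved with Slc6a11 from array to array. The genes with the pattern most like that of Slc6a11, among 3140 probes with a symbol over the 24 arrays, were Lenep (lens epithelial protein, Pearson r 0.90), Lgals3 (galectin-3, 0.88), Crygd (a lens crystallin, 0.88), Timp2 (0.86) and Anxa5 (0.85). With the group means removed, which leaves differences between arrays of a group, they were Lgals3 (0.86), Crygd (0.79), the crystallin Crybb3 (0.78), Or9s27 (0.78) and the crystallin Cryba4 (0.77). These correlations are descriptions over arrays that share their groups. Of a list of 17 lens markers, 10 had a probe and 8 were tested. At 3 months 7 of those 8 were called, all higher, where 50.5% of all tested probes were called higher. The median difference of the list was 1.53, against 0.44 for all tested probes. With quantile normalization 3 were called, all higher, and the median was 0.55, against 0.16 for all tested probes. None of the 10 was at the floor on any array, and Crygd differed by 4.39 at 3 months.

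The summed scaled intensity of the lens markers ranged from 183 to 503 on 1M Control arrays, from 47.0 to 480 on 1M STZ arrays, from 130 to 326 on 3M Control arrays and from 408 to 828 on 3M STZ arrays. At 1 month, array 2 of 1M STZ had the highest level of both Slc6a11 (log2 3.20) and Crygd (5.89), and array 5 was next in both (2.98 and 4.15). Array 4 of 1M STZ had the lowest level of both (0.93 and -0.52). The mean level of all lens markers was 3.12 on array 2 and 0.08 on array 4, outside the 1M Control range (1.36 to 2.52). On arrays 3 and 5 of 1M STZ it was 1.81 and 1.89, within that range. Slc6a11 on arrays 3 and 5 (2.38 and 2.98) lay above all 1M Control arrays. With group means removed, the mean log2 level of the lens markers had a Pearson r of 0.86 with Slc6a11 over the 24 arrays, of 0.52 with Slc6a13, and between -0.28 and -0.10 with the other 4 genes. On array 2 of 3M STZ the mean level of the lens markers was 2.40, below the highest 3M Control array (2.41). The summed lens markers (408), Lenep (1.80) and Lgals3 (2.21) on that array were above the highest 3M Control values (326, 1.48 and 1.06). Slc6a11 there was 2.21 against 1.22 on the highest control array. With the mean level of the lens markers as that covariate, the difference of Slc6a11 at 3 months was 1.18 (SE 0.24, adjusted p = 0.0156 in limma), at 1 month it was 0.69 and not called, and the difference between the time points was 0.50 and no longer called (adjusted p = 0.319 in limma). The part of lens tissue in these levels was not tested beyond these values.

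**Figure D2:**
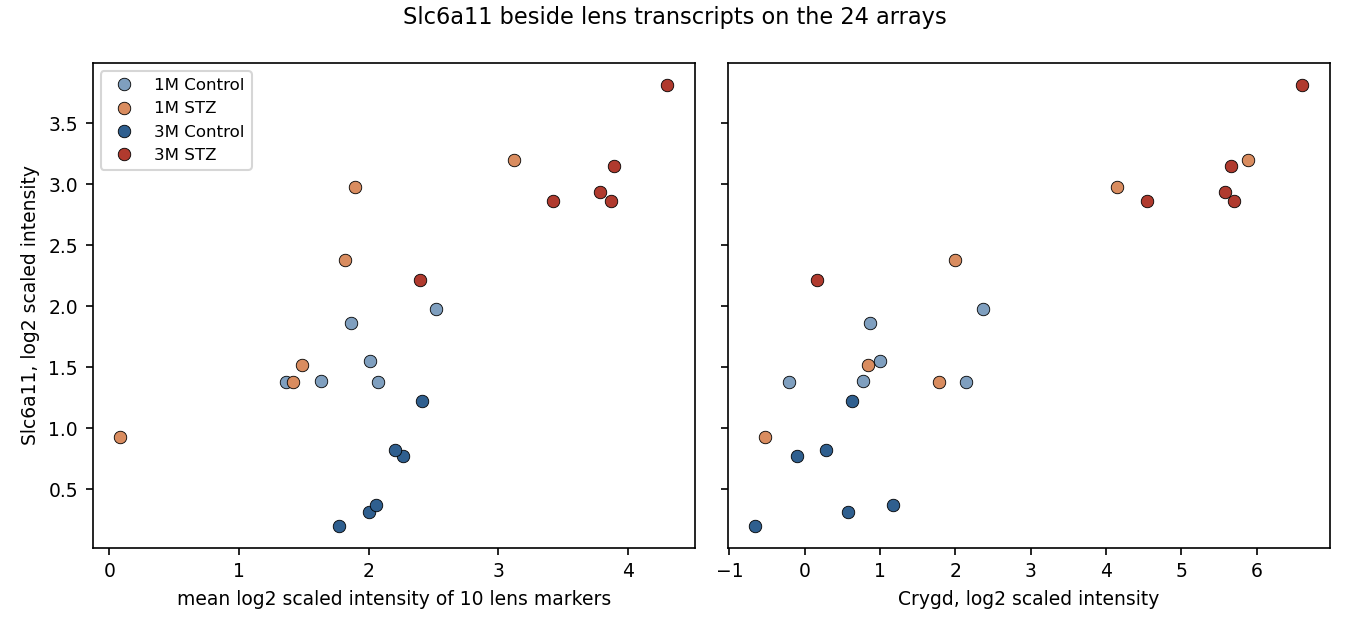
Slc6a11 (vertical axis, log2 scaled intensity) against the mean log2 level of 10 lens markers (left) and against Crygd (right) on the 24 arrays, with 1 point per array and colors for the 4 groups. Within each STZ group, the arrays highest and lowest in Slc6a11 were also highest and lowest in both lens measures. Arrays 3 and 5 of 1M STZ lay above all 1M Control arrays for Slc6a11, with lens means (1.81 and 1.89) within the control range. The 3M STZ array with Crygd at 0.16, within the control range, lay above every 3M Control array for Slc6a11. Its summed lens markers (408) were also above those of every 3M Control array (highest 326).

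Slc6a13 encodes GAT2, a GABA transporter best known from the leptomeninges and liver. Its scaled intensity had a lowest, median and highest value of 2.12, 3.14 and 6.10 on 1M Control arrays and of 0.56, 2.74 and 4.77 on 1M STZ arrays. At 3 months these values were 1.82, 2.19 and 2.79 in controls and 2.08, 3.38 and 4.30 in STZ. The groups overlapped at both times, although 4 of the 6 arrays of 3M STZ lay above all controls. The log2 difference was 0.51 at 3 months (95% interval -0.19 to 1.21, adjusted p = 0.203 in limma) and -0.44 at 1 month (-1.14 to 0.26). At 1 month array 4 of 1M STZ decided the value. It lay at -0.85 when the next array of its group lay at 1.19, and without it the difference was -0.02. The 3 month difference was called in separate models of the time points (adjusted p = 0.0498 in limma) and became -0.31 with the lens covariate.

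Slc6a9 encodes GlyT1, which takes up glycine and is carried in the retina by glycinergic amacrine cells. Its groups overlapped at both times. On 1M Control arrays they ran from 1.52 to 2.89 with a median of 2.13, and on 1M STZ arrays from 1.68 to 2.96 with a median of 2.57. On 3M Control arrays they ran from 1.26 to 2.05 (median 1.79), and on 3M STZ arrays from 1.09 to 2.03 (median 1.50). The 3M STZ arrays fell apart, with arrays 1, 3 and 4 below all controls and arrays 2, 5 and 6 among them. The difference was -0.21 at 3 months (95% interval -0.61 to 0.18) and 0.23 at 1 month (-0.17 to 0.62), neither of them called. Set against the median of all probes, the 3 month value was -0.66, and with quantile normalization it was -0.58 and called (adjusted p = 0.0261 in limma).

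Gad1 encodes the 67 kDa form of glutamate decarboxylase. Its scaled intensity had a lowest, median and highest value of 14.3, 16.0 and 21.3 on 1M Control arrays and of 8.14, 15.9 and 21.2 on 1M STZ arrays. At 3 months these were 4.17, 8.35 and 11.9 in controls and 8.80, 12.4 and 13.3 in STZ. Thus 4 of 6 arrays of 3M STZ lay above all controls, and array 2 of 3M Control was the lowest of all 24. The log2 difference at 3 months was 0.57 (SE 0.21, adjusted p = 0.0281 in limma), only 0.12 above the median of all probes. With quantile normalization it was -0.01, and without array 2 of 3M Control it was 0.38 and not called (adjusted p = 0.103 in limma). At 1 month it was -0.16 (95% interval -0.60 to 0.27) and became 0.01 without array 2 of 1M STZ, which lay at log2 3.03 when the next array of its group lay at 3.84. The difference that separated the most arrays lay between the controls, since Gad1 was lower on all 3M Control arrays than on any 1M Control array, by 1.07 (adjusted p = 9.00e-05 in limma).

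Gad2 encodes the 65 kDa form of the same enzyme. Both of its probes lay under the limit, a scaled intensity of 0.554, in the median over all arrays. The first had group medians of 0.14 and 0.15 in 1M Control and 1M STZ and of 0.83 and 0.73 in 3M Control and 3M STZ. The second had medians of 0.04, 0.06, 0.20 and 0.17 in the same order, and lay above the median of the bacterial control probes on only 1 array, of 1M STZ. Fitted without the limit, the difference at 3 months was -0.20 for the first probe (95% interval -0.46 to 0.06) and -0.11 for the second (-0.71 to 0.49). The rise of both from 1 to 3 months went with a rise of the dimmest signals on all arrays, as the 5th percentile of the rat probes lay between -4.76 and -4.32 in log2 at 1 month and between -2.04 and -1.42 at 3 months. The first probe lay above the median of the bacterial controls on 5 of 6 arrays of 1M Control and on all arrays of the other groups, and at 3 months it ran from 0.65 to 0.96, above the limit on all 12 arrays. The second probe is too dim to give a level of Gad2.

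Slc32a1 encodes the vesicular inhibitory amino acid transporter VGAT. Its scaled intensity had a lowest, median and highest value of 2.50, 3.31 and 3.56 on 1M Control arrays and of 2.60, 3.87 and 6.56 on 1M STZ arrays. At 3 months these were 1.05, 2.11 and 3.20 in controls and 2.23, 3.27 and 4.51 in STZ. At each time 4 of 6 STZ arrays lay above all controls, and the groups overlapped. The difference was 0.67 at 3 months (SE 0.23, adjusted p = 0.0163 in limma), 0.23 above the median of all probes, and 0.30 at 1 month (95% interval -0.16 to 0.76), which was not called. The 3 month value was 0.33 and not called with quantile normalization, and 0.48 and not called without array 2 of 3M Control (adjusted p = 0.0606 in limma), the lowest of all 24 arrays for this gene too.

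Abat was the one gene called lower at 3 months. Its scaled intensity had a lowest, median and highest value of 0.45, 0.59 and 0.78 on 1M Control arrays and of 0.54, 0.67 and 0.97 on 1M STZ arrays. On 3M Control arrays these were 0.74, 1.09 and 1.71, and on 3M STZ arrays 0.75, 0.83 and 0.89. All 3M STZ arrays lay inside the range of the controls, where array 2 was the highest and array 5 the lowest. The difference was -0.45 (SE 0.17, adjusted p = 0.0295 in limma), or -0.90 against the median of all probes, and -0.60 with quantile normalization. Of the 18 alternatives run for it, apart from single arrays left out, 10 kept the call. Those that lost it included quantile normalization within each time point (-0.48), array weights (-0.23) and the lens covariate (-0.25). Without array 2 of 3M Control it was -0.33 and not called (adjusted p = 0.0931 in limma). At 1 month the difference was 0.23 (95% interval -0.12 to 0.58). The STZ effects of the time points differed by -0.68, which was not called (adjusted p = 0.0537 in limma). Abat rose by 0.89 from 1M Control to 3M Control (adjusted p = 5.57e-05 in limma).

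**Figure D3:**
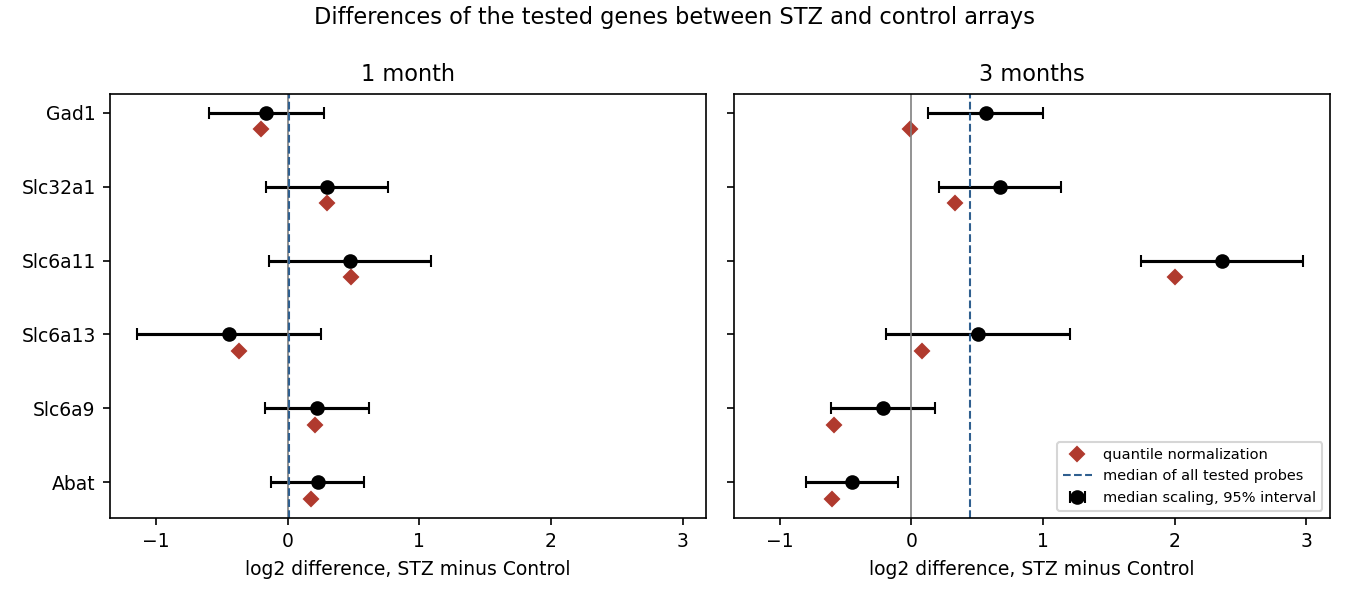
Log2 difference between STZ and Control arrays for each tested gene at 1 month (left) and 3 months (right), with the 95% interval from limma. Diamonds are the same differences after quantile normalization and the dashed line is the median of all tested probes. At 3 months Slc6a11 lies at 2.36 and Gad1, Slc32a1 and Slc6a13 lie near the dashed line at 0.44, while Slc6a9 and Abat lie below it.

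At 1 month none of the 6 tested probes was called in limma, where 0.00908% of all tested probes were. None had an unadjusted p under 0.05 with a difference of 1.2-fold, and the test named in the study's methods called none either. Their median difference was 0.23, and 4 of the 6 were above 0. None separated the 1 month groups, as 0.545% of all tested probes did, 0.336% with STZ higher. Between the control groups, 4 of the 6 tested probes were called from 1 to 3 months, where 68.8% of all tested probes were. Gad1, Slc6a11 and Slc32a1 were lower at 3 months and Abat was higher, against 55.6% of all probes lower and 13.2% higher. Slc6a11 and Gad1 separated the control groups fully with 3M Control lower, as 30.1% of all tested probes did, and 38.3% did in either direction (8.22% with 3M Control higher). With quantile normalization 2 of these 4 calls were left, those of Gad1 and Abat.

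Markers of the cells that carry these genes rose at 3 months in shares near that of all tested probes. Of a list of 17 amacrine cell markers, 11 were tested and 6 rose at 3 months, a share near the 50.5% of all tested probes called higher. Their median difference was 0.52. None was called with quantile normalization, where the median difference was 0.07. The summed level of the amacrine list ran from 71.1 to 114 in 1M Control, 86.7 to 127 in 1M STZ, 35.2 to 92.9 in 3M Control and 74.4 to 107 in 3M STZ. Of 11 Müller glia markers 7 were tested and 4 rose, also near that share, with a median difference of 0.73. With quantile normalization 2 were called higher and the median difference was -0.06. The summed level of the Müller list ran from 198 to 219 in 1M Control, 221 to 335 in 1M STZ, 65.2 to 184 in 3M Control and 176 to 237 in 3M STZ. With group means removed, the mean level of the amacrine list had a Pearson r of 0.79 with Slc32a1 and 0.68 with Gad1 over the 24 arrays, and of 0.05 with Slc6a11. The Müller list had an r of 0.09 with Slc6a11. In whole retina, a change in the number of cells of a type and a change in RNA per cell cannot be told apart.

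The other genes of the pathway were described by 4 lists with 62 genes, of which 50 had a probe and 42 were tested. At 3 months 25 were called, of which 22 rose and 3 fell, where 54.1% of all tested probes were called, 50.5% higher and 3.55% lower. The share of the list that rose was thus near that of all probes. The median difference of the 42 was 0.40, against 0.44 for all tested probes. With quantile normalization 18 were called, 13 higher and 5 lower. At 1 month none of the 42 was called in limma and 3 were without adjustment of p, and the test of the study's methods called 1 at its own threshold.

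Among the other carriers of the SLC6 family 6 of 9 were called higher at 3 months and none lower with median scaling, beside 50.5% of all tested probes higher, and the median difference was 0.63. With quantile normalization 6 were called higher and 1 lower, and within each time point 4 and 1. Slc6a12, the betaine and GABA transporter BGT1, was higher by 0.78 (SE 0.20), and by 1.15 with quantile normalization, and was called under both scalings, as Slc6a11 was. The amino acid transporter Slc6a18 (0.98), the proline transporter Slc6a7 (0.78), the noradrenaline transporter Slc6a2 (0.67) and the creatine transporter Slc6a8 (0.62) were also higher. Of these, Slc6a8 lost its call with quantile normalization (0.22, adjusted p = 0.415 in limma). The neuronal glycine transporter GlyT2, Slc6a5, differed by 0.24 and the taurine transporter Slc6a6 by -0.11, and neither was called. With quantile normalization both were, Slc6a5 higher by 0.86 (adjusted p = 0.00392 in limma) and Slc6a6 lower at -0.79 (adjusted p = 0.0334 in limma), and within each time point only Slc6a6 was.

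In the list of the GABA shunt and glutamate supply 5 of 13 tested genes were higher and 2 lower, with a median of 0.19, where 50.5% of all tested probes were higher and 3.55% lower. The glial glutamate transporter Slc1a3 (0.88), monoamine oxidase B (Maob, 0.87), aspartate aminotransferase Got2 (0.80), glutamate dehydrogenase Glud1 (0.71) and the neuronal glutamate transporter Slc1a1 (0.70) were called higher. With quantile normalization Maob alone of these stayed called. The glutamate transporter Slc1a2 fell by 0.60 and stayed lower and called with quantile normalization, at -0.84. Glutamine synthetase (Glul), the Müller cell enzyme that removes glutamate, differed by 0.35 and was not called, and it turned to -0.45 with quantile normalization. Aldh5a1 had no probe with a symbol here.

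On the receiving side, 5 of 8 genes of the inhibitory postsynapse and chloride transport rose at 3 months (median difference 0.56), beside 50.5% of all tested probes, and with quantile normalization 1 was higher and 1 lower. The chloride exporter KCC2, Slc12a5, was higher by 0.83 with median scaling and by 0.14, not called, with quantile normalization. Of 12 tested subunits of GABA-A and rho receptors 6 were higher and 1 lower, a share of higher calls near that of all probes. Gabra4 was higher by 1.15 (0.78 with quantile normalization) and Gabrg1 fell by 0.84 (-1.23 with quantile normalization), and both stayed called under the scalings compared.

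**Figure D4:**
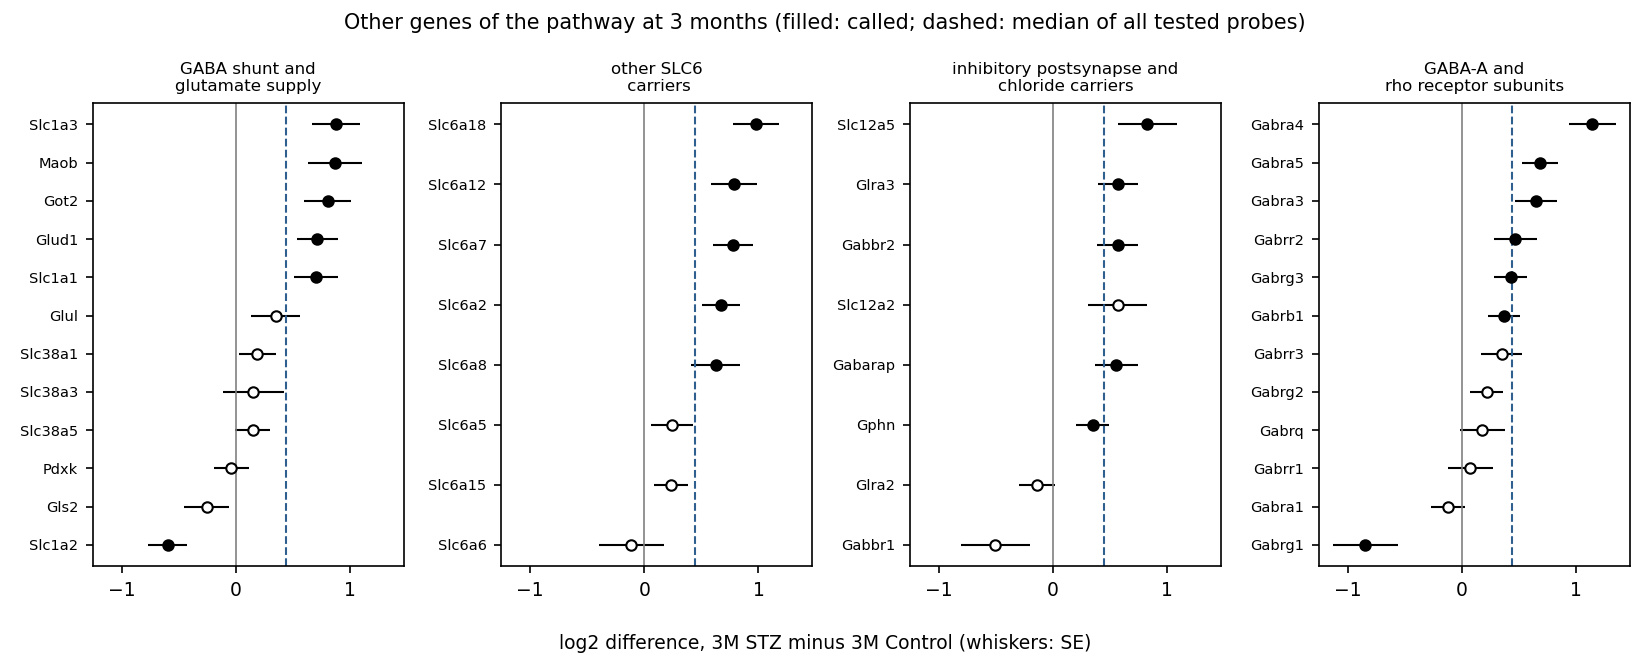
Log2 difference between 3M STZ and 3M Control for tested genes of the 4 pathway lists, with SE from limma. Filled points were called, open points were not, and the dashed line is the median of all tested probes at 0.44. Most called genes lie to the right of 0, and Slc1a2 and Gabrg1 lie to the left.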

How the data were processed

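Retinal RNA was measured on 24 arrays, each labelled by its group and a replicate number. According to the authors, spots were scanned and read with the CodeLink software, the local background was subtracted and each array was normalized within itself. Linear quantities were deposited for a spot, its intensity after background subtraction and that intensity over a constant near the array median. The deposited values carry no read depth, and the number of arrays and the signal over background limit precision. No probe sequences were used here.

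Here the first of these was divided by the array's median over rat probes, raised to at least 0.01 and put on the log2 scale. Probes with a median scaled intensity above the 35th percentile (0.554) were tested with limma 3.58.1 in R 4.3.3, in 1 model of the 4 groups, and p-values were adjusted by Benjamini-Hochberg over 22025 probes. Symbols came from RefSeq accessions, of which 4674 of 5469 matched 1 symbol. A gene with several tested probes was given by the brightest. In simulated data with 200 changed probes, the model called 199 of them and 17 of the 21825 unchanged probes. These counts hold for the size of change simulated, and sensitivity for smaller changes was not tested. The methods' test, which allows unequal variances at each time point alone, was run at p under 0.01.

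Named were all 7 genes, up to 4 called genes in each direction per pathway list and those of closest role (Slc6a12, Slc6a5, Aldh5a1, Glul and Slc6a6), and the 5 probes most like Slc6a11 by each measure. Single values of some pathway genes are not reported here, and the counts include them. The genes, lists and tests were chosen with earlier results of these data known. Alternatives covered scaling, filter, floor, model, test and arrays left out. A lens covariate and the removal of both 3 month arrays least like their group were added after seeing the data.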

Additional observations from a re-analysis of the deposited data

Results flagged for a closer look

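The level of Slc6a13 on array 4 of 1M STZ was -0.85 in log2 of scaled intensity. It was flagged because its gap to the nearest array of the group (1.19) took 0.655 of the group's range, beyond the limit of Dixon's test for 6 arrays. Slc6a11 (0.93), Crygd (-0.52), Lgals3 (-0.92) and the summed lens markers (47.0) were also at the lowest level of their group on that array. Of the groups of arrays of the 6 tested genes this was the only one flagged, and chance flags about 1 in 20.

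The STZ effect on Slc6a11 differed between the time points by 1.89, as tested by the interaction in limma (adjusted p = 0.0167), and all 6 arrays of 3M STZ but only 3 of 6 of 1M STZ lay above all controls of their time. It was called in each fit with 1 array left out (1.66 to 2.11). It was not called with quantile normalization within each time point (1.47) or with the lens covariate (0.50).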

How the results depend on the processing

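The number of tested GABA and glycine probes called at 3 months was 4, and it was 2 with quantile normalization within each time point, 1 with array brightness as a covariate, 1 in the methods' test with or without adjustment, 2 with the lens covariate and 2 without both 3 month arrays least like their group. With each array left out it ranged from 1 to 4. The number with a different effect at 3 months and 1 month was 1. It was 0 with quantile normalization within each time point and with the lens covariate, 2 with array weights, 3 without adjustment, and 1 to 3 with each array left out, where Abat was added without array 1 of 1M STZ, array 5 of 3M Control or array 4 of 3M STZ, and Abat and Gad1 without array 6 of 3M Control. The number called between the control groups was 4, and 2 with quantile normalization. Of the 42 pathway genes, 25 were called at 3 months, 16 with quantile normalization within each time point, 9 with brightness as a covariate, 7 in the methods' test and 5 after its adjustment, and 7 with the lens covariate. At 1 month none was, and 1 was with array weights, 3 without adjustment and 1 in the unadjusted methods' test. Signs turned for Gad1 at 3 months (-0.010 with quantile normalization and -0.011 within each time point) and at 1 month (-0.27 to 0.0096 with each array left out, the latter without array 2 of 1M STZ), for Slc6a9 between controls (0.25 with quantile normalization), and with the lens covariate for Slc6a13 at 3 months (-0.31) and between the time points (-0.017). The causes were not tested. Slc6a11 stayed called at 3 months throughout, between 1.18 and 2.57. The replicate numbers did not pair arrays, since the deviations of same-numbered control and STZ arrays correlated between -0.24 and 0.25, and the replicate block left 4 probes called at 3 months. A fold in intensity is read on a scale whose dimmest signals differ between the time points, so that values of dim probes such as Abat and Gad2 are the least certain.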
